A study of Mus musculus with 12 samples.

Results

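The genes described here encode the 5 NF-kappaB subunits (Nfkb1, Nfkb2, Rel, Rela and Relb) and 5 proteins of the IkB family (Nfkbia, Nfkbib, Nfkbie, Nfkbiz and Bcl3). They were chosen by name, with earlier results of these data known, as 10 of the 54532 genes in a table of RNA-seq counts. All 10 had enough counts to be tested, among 14506 genes that did. The libraries came from resident peritoneal macrophages, the phagocytes that live in the abdominal cavity, of C57BL/6 mice. Culture in DMEM lasted 24 h, with either MOPS or HEPES as buffer, and the cells were then left untreated or given 10 ng/ml LPS for 2 h, with 3 libraries in each of 4 groups (HEPES, MOPS, HEPES with LPS and MOPS with LPS). All groups share the mouse strain, the cell type and the basic medium. The study's title concerns extracellular acidity, and its design text lists pH 6.8 before 7.4 and MOPS before HEPES. MOPS is therefore taken as the acidic medium from word order alone, and buffer and pH cannot be told apart.

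NF-kappaB is a dimer of 2 Rel-family proteins that binds kB sites in DNA. In resting cells the classical IkB proteins (IkB-alpha, IkB-beta and IkB-epsilon, from Nfkbia, Nfkbib and Nfkbie) hold the dimers in the cytoplasm. LPS, a component of the bacterial outer membrane, acts through Toll-like receptor 4 on the IkB kinase complex, which marks these inhibitors for destruction and frees the dimers. Several genes of the family are themselves NF-kappaB targets, so that new inhibitor is made and the response is damped. Nfkb1 and Nfkb2 encode the precursors p105 and p100, which are processed to p50 and p52. Rela (p65), Rel (c-Rel) and Relb carry transactivation domains. Bcl3 and Nfkbiz (IkB-zeta) encode atypical IkB proteins that act mainly in the nucleus on DNA-bound p50 or p52 dimers.

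In the mm10 coordinates of the table, Nfkb1 (ENSMUSG00000028163) lies on chromosome 3 from 135584655 to 135691547, Nfkb2 (ENSMUSG00000025225) on chromosome 19 from 46304737 to 46312090, and Rela (ENSMUSG00000024927) on chromosome 19 from 5637483 to 5648130. Rel (ENSMUSG00000020275) lies on chromosome 11 from 23736847 to 23770970 and Relb (ENSMUSG00000002983) on chromosome 7 from 19606217 to 19629438. Of the IkB genes, Nfkbia (ENSMUSG00000021025) lies on chromosome 12 from 55489410 to 55492647. Nfkbib (ENSMUSG00000030595) lies on chromosome 7 from 28758251 to 28767512 and Nfkbie (ENSMUSG00000023947) on chromosome 17 from 45555703 to 45563169. Nfkbiz (ENSMUSG00000035356) lies on chromosome 16 from 55811375 to 55838899 and Bcl3 (ENSMUSG00000053175) on chromosome 7 from 19808462 to 19822770. All are protein-coding, and values are counts per gene, not per transcript.

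Because the members rose together with LPS, the 250 bases upstream of their transcript starts were searched for kB-like sequence. RefSeq promoter windows (GRCm38.p6) were matched for 7 of the 10 members, Nfkb2 having 3 starts. The windows that hold a match to the kB consensus (for Nfkb2, that of its start nearest the annotated gene start) are printed because they show where these matches lie, 5′ to 3′ on the gene's strand, with the bases of every consensus match in capitals. They are at chr19:46304487-46304736 (plus strand, Nfkb2), chr11:23770970-23771219 (minus strand, Rel), chr12:55492648-55492897 (minus strand, Nfkbia) and chr17:45555450-45555699 (plus strand, Nfkbie).
Nfkb2: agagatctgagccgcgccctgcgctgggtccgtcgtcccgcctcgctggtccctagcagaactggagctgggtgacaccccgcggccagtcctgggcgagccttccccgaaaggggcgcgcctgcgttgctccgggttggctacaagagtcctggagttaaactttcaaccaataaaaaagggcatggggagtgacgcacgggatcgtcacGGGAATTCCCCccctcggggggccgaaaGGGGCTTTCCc
Rel: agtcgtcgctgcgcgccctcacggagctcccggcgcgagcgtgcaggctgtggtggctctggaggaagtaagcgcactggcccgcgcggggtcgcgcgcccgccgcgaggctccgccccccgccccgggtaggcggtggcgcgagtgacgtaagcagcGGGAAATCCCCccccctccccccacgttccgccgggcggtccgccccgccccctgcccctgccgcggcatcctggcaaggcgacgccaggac
Nfkbia: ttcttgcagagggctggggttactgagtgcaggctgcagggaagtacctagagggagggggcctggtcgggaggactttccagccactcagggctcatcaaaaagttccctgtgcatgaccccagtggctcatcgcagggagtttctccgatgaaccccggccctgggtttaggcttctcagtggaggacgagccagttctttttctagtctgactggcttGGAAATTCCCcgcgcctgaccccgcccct
Nfkbie: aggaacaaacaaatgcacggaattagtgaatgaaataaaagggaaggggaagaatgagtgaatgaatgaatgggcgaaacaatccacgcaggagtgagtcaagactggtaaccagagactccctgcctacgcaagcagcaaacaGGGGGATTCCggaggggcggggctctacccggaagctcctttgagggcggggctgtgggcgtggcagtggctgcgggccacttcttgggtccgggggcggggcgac

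The kB consensus, searched on both strands, was matched in 4 of the 7 members (Nfkb2, Rel, Nfkbia and Nfkbie). The consensus is the wider pattern given below, with A or G right after GGG and only C or T at both places before CC. Counted by window, it was matched in 6 of their 9 windows and in 7.25% of all 32851 windows. The 6 include every window of Nfkb2, some of which overlap each other, so they are not separate cases. In Nfkb2 the palindrome GGGAATTCCC, at bases -39 to -30 before the start, overlaps a further match shifted by 1 base, and GGGGCTTTCC lies at -11 to -2. Its other starts hold matches at -236 to -227 and at -225 to -216. In Nfkbia the match lies at -29 to -20 and reads GGGAATTTCC on the opposite strand. In Rel, GGGAAATCCC lies at -92 to -83, also overlapping a match shifted by 1 base, and in Nfkbie GGGGGATTCC lies at -106 to -97. A wider pattern of GGG, any 5 bases and CC, searched on both strands and containing the consensus, was matched in 6 of the 7 members, in 8 of their 9 windows and in 45.8% of all windows. Rela and Bcl3 held the wider pattern without the consensus, and Nfkbib held neither, which says only that these letters are not in that window. The Nfkbib window (chr7:28766645-28766894) lies within the annotated gene. So do the windows of the other starts of Nfkb2 (chr19:46305445-46305694 and chr19:46305680-46305929), which are among the 6 with a consensus match.

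**Figure D1:**
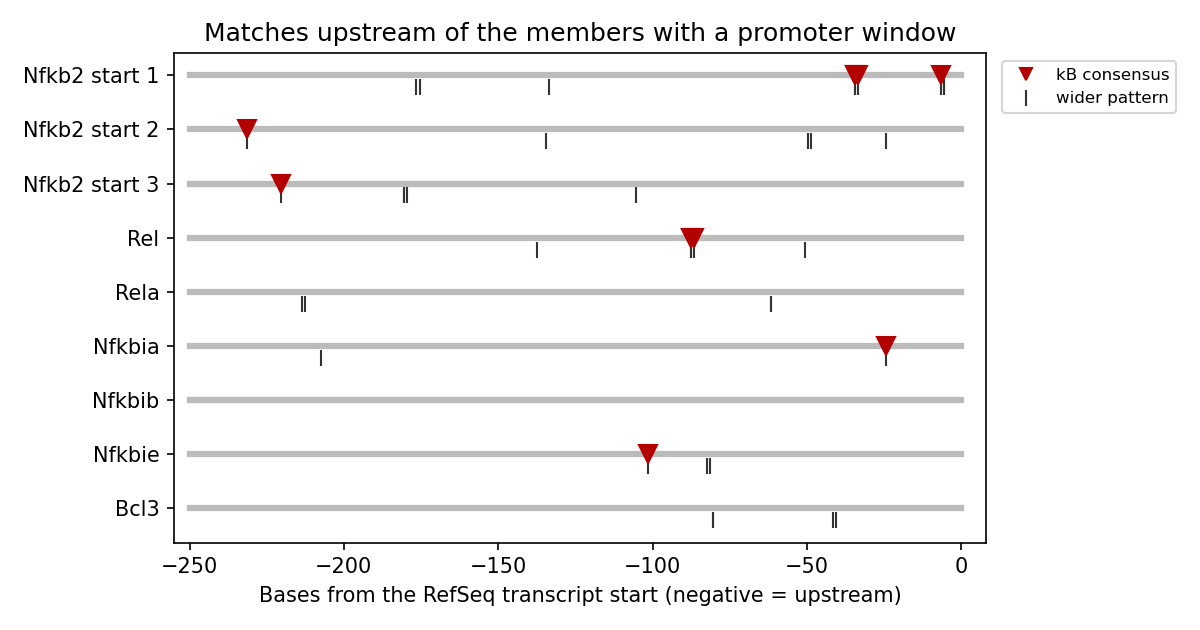
Position of sequence matches in the 250 bases upstream of each RefSeq transcript start (x axis, bases from the start) for the 7 members with a promoter window, with 1 row per start. Triangles are matches to the kB consensus, seen in Nfkb2, Rel, Nfkbia and Nfkbie, and ticks are matches to the wider pattern.

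Library totals were 20114613 to 24734853 counts. For library pairs of a group, chi-square over its degrees of freedom was 2.66 to 6.54, above what counting error alone gives, so none looked like a repeat of another. Whether replicates came from different animals or cultures is not in the labels, and p-values then reflect only how these libraries vary, which may be technical. The 12 macrophage markers were detected in every group, and Csf1r, the receptor for the macrophage growth factor, stood at 1474 to 2195 CPM, the count after scaling for library size and composition. The summed level of 10 B cell markers was 116 to 194 CPM in HEPES, 246 to 250.2 in MOPS, 38.7 to 44.0 in HEPES with LPS and 147 to 162 in MOPS with LPS. The macrophage markers summed to 26590 to 27980 CPM in HEPES, 17371 to 17615 in MOPS, 34195 to 35838 in HEPES with LPS and 21748 to 24592 in MOPS with LPS. Most of that sum was Lyz2, with means of 21982 CPM in HEPES, 12599 in MOPS, 23350 in HEPES with LPS and 13827 in MOPS with LPS. Of the 12 markers, 4 were called higher and 6 lower in MOPS without LPS (24.3% and 25.4% of all genes). With LPS 3 were called higher and 6 lower (26.9% of all genes in each direction). B cells also express Rel-family genes, and the part of these marker differences in the results below was not tested. In bulk RNA, fewer cells of a type and less RNA per cell cannot be told apart. Markers of other cells summed to 50.4 to 82.3 CPM (T and NK cells), 23.6 to 40.7 (granulocytes and mast cells), 38.5 to 56.7 (dendritic cells, within which Clec9a, Ccr7 and Flt3 were higher in MOPS and Cd209a lower) and 7.22 to 11.9 (mesothelial, stromal and endothelial cells), with the neutrophil genes Ly6g and Retnlg and the NK cell gene Ncr1 at 0 in every group. Most of the T and NK cell sum was Il7r, with group means of 50.4 to 75.3 CPM. The T cell genes Cd3d, Cd3e and Cd3g had group means of at most 0.112 CPM. Clec9a had a mean of 1.38 CPM in HEPES and 9.62 in MOPS, Ccr7 1.22 and 8.44, Flt3 0.130 and 0.981, and Cd209a 30.4 and 19.9. With LPS the means of these 4 genes kept that order between the media, though the groups of Cd209a overlapped. Xcr1 was lower in MOPS with LPS, at a mean of 6.25 CPM against 10.1 in HEPES with LPS. Of 7 dendritic cell markers tested, 4 were called higher and 1 lower in MOPS without LPS (24.3% and 25.4% of all genes). With LPS 4 were called higher and 2 lower (26.9% in each direction).

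Levels are given in RPKM, which is CPM per kilobase of the length given with the counts. For Nfkb1 that length is 12061 bases, not the whole span of the gene. The 5 subunits are given first, with the libraries of each group in the order of their labels. Nfkb1 was at 14.03, 13.6 and 14.4 RPKM in HEPES, at 11.9, 13.0 and 12.5 in MOPS, at 195, 187 and 187 in HEPES with LPS, and at 139.8, 128 and 126 in MOPS with LPS. Nfkb2 was at 29.9, 32.4 and 32.9 RPKM in HEPES, at 28.6, 33.3 and 30.2 in MOPS, at 334, 309 and 319 in HEPES with LPS, and at 239.8, 224 and 228 in MOPS with LPS. For both precursor genes the LPS libraries of MOPS lay wholly below those of HEPES, while without LPS only Nfkb2 had overlapping groups. Rel was at 11.8, 11.9 and 11.9 RPKM in HEPES, at 10.5, 10.7 and 10.7 in MOPS, at 54.3, 57.7 and 54.3 in HEPES with LPS, and at 50.5, 53.6 and 49.4 in MOPS with LPS. Rela was at 32.6, 34.4 and 34.8 RPKM in HEPES, at 36.1, 38.9 and 35.9 in MOPS, at 96.3, 94.6 and 95.9 in HEPES with LPS, and at 108, 104.8 and 104.2 in MOPS with LPS. Rela was thus higher in every MOPS library than in any HEPES library of the same treatment, and Rel was lower. Relb was at 14.3, 16.2 and 14.8 RPKM in HEPES, at 16.6, 18.8 and 17.7 in MOPS, at 75.3, 68.4 and 68.8 in HEPES with LPS, and at 57.5, 57.9 and 63.0 in MOPS with LPS. Its MOPS libraries were above the HEPES libraries without LPS and below them with LPS, with no overlap in either case.

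Among the classical inhibitors, Nfkbia was at 42.9, 51.0 and 46.7 RPKM in HEPES, at 57.5, 60.0 and 58.7 in MOPS, at 1099.9, 1036 and 1046 in HEPES with LPS, and at 983, 897 and 974 in MOPS with LPS. Nfkbib was at 13.8, 15.2 and 14.1 RPKM in HEPES, at 16.5, 17.9 and 17.0 in MOPS, at 117, 110.4 and 118 in HEPES with LPS, and at 104, 93.8 and 101 in MOPS with LPS. Both had the arrangement of Relb, with MOPS above HEPES without LPS and below it with LPS. Nfkbie was at 8.91, 10.2 and 9.72 RPKM in HEPES, at 8.87, 10.5 and 9.67 in MOPS, at 97.7, 98.6 and 99.95 in HEPES with LPS, and at 110.2, 103 and 107 in MOPS with LPS. Its groups overlapped without LPS and did not with LPS. Of the nuclear IkB genes, Nfkbiz was at 9.25, 8.88 and 8.93 RPKM in HEPES and at 6.09, 6.36 and 6.58 in MOPS. Its levels were 298, 301 and 297 in HEPES with LPS, and 299, 285 and 280.4 in MOPS with LPS. Bcl3 was at 7.08, 8.71 and 7.78 RPKM in HEPES, at 9.46, 10.1 and 9.78 in MOPS, at 51.1, 51.6 and 50.3 in HEPES with LPS, and at 53.7, 51.7 and 51.7 in MOPS with LPS. The media differed for these 2 genes mainly before LPS, Nfkbiz being lower and Bcl3 higher in MOPS.

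**Figure D2:**
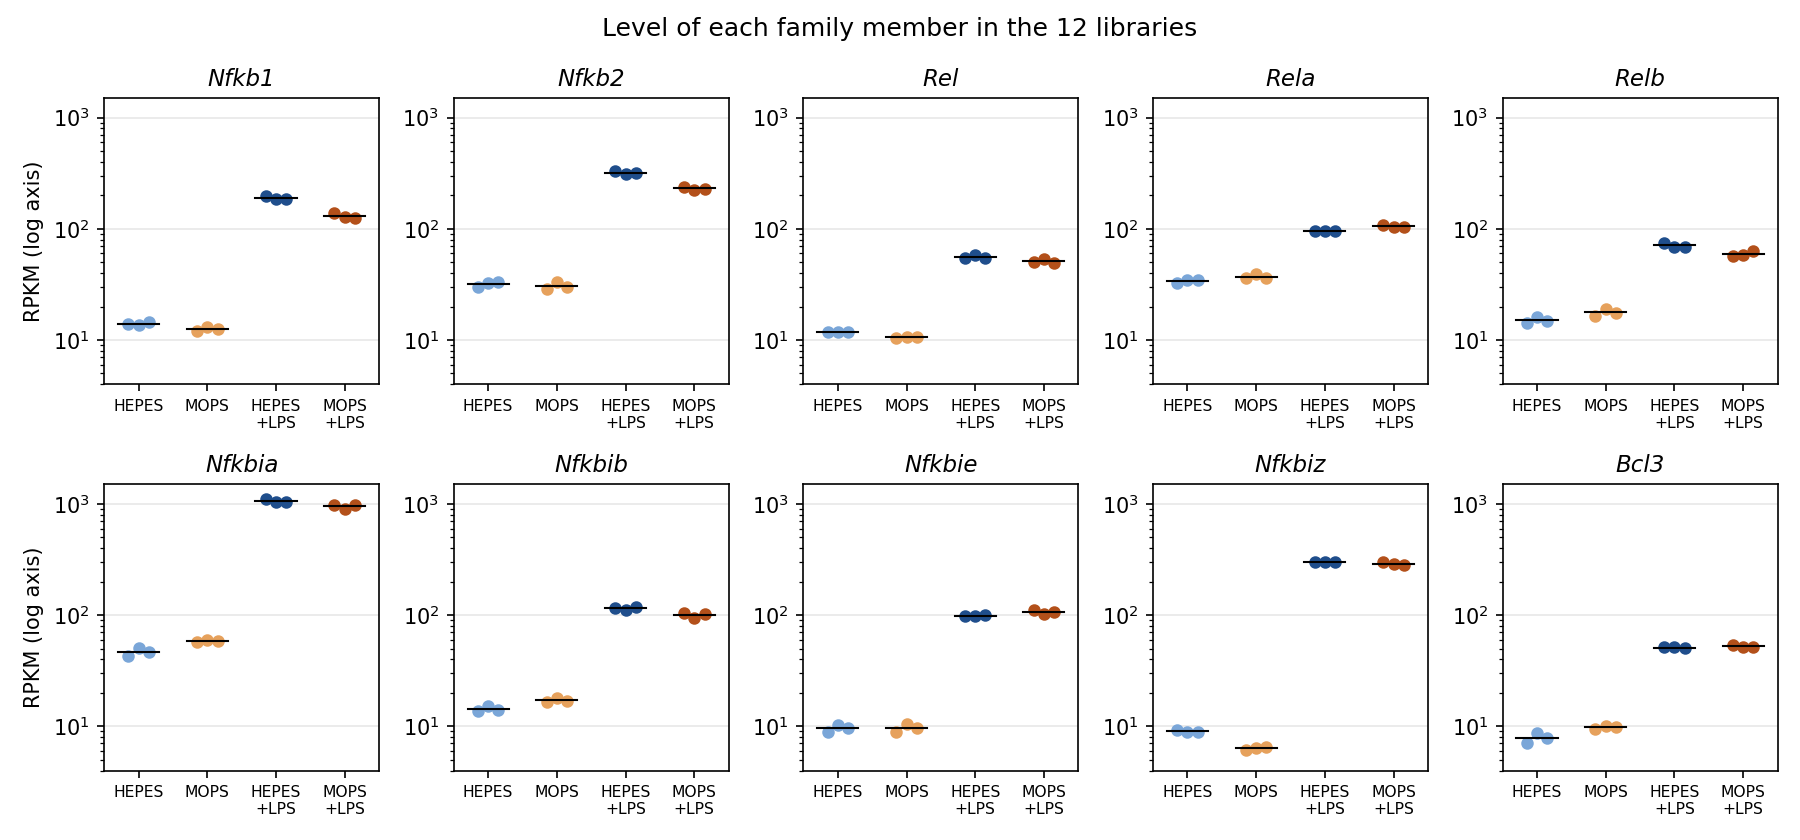
RPKM of each member (log axis) in the 12 libraries, 1 point per library, with the group mean as a line. All 10 genes are higher in the LPS groups, and the medium shifts levels by much less than LPS does, as for Nfkb1 at 189.5 RPKM in HEPES with LPS against 131 in MOPS with LPS.

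Nfkbia had the highest level of the 10 members in each group, from 46.9 ± 4.06 RPKM (SD, n = 3) in HEPES to 1060.4 ± 34.6 in HEPES with LPS. Without LPS, Rela and Nfkb2 followed, and in HEPES these 2 overlapped (33.9 ± 1.15 and 31.7 ± 1.59 RPKM). In HEPES, Relb, Nfkbib and Nfkb1 came next at 15.1, 14.4 and 14.02 RPKM, each overlapping the next, then Rel at 11.9, and last Nfkbie and Nfkbiz, which overlapped at 9.63 and 9.02, and Bcl3 at 7.86. With LPS in HEPES no neighbours in the order overlapped. Nfkb2 came second at 321 ± 12.6 RPKM, followed by Nfkbiz at 299 ± 2.24 and Nfkb1 at 189.5 ± 5.03, and Rela had fallen to the seventh place in the order while its own level rose. In MOPS with LPS, Nfkbiz at 288 ± 9.93 RPKM stood above Nfkb2 at 231 ± 8.19, Nfkbie overlapped Rela, and Bcl3 overlapped Rel. The order of genes depends on the lengths used, and those of the table are all exons joined for Nfkb1 (12061 bases) and, for Nfkb2, fewer bases (3289) than its longest coding transcript in GENCODE vM21 (3846). Per kilobase of the longest coding transcript, an alternative chosen after seeing the data, Nfkbia stayed first in each group. Nfkb1 then moved from the sixth to the second place in HEPES (41.1 ± 1.19, SD, n = 3), above Rela (33.9) and Nfkb2 (27.1). In HEPES with LPS Nfkb1 (555 ± 14.7) and Nfkbiz (364 ± 2.73) stood above Nfkb2 (274 ± 10.8), and in MOPS with LPS Nfkb1 (385 ± 22.02) and Nfkbiz (352 ± 12.1) did so as well (197 ± 7.004 for Nfkb2).

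The response to LPS was tested in each medium with edgeR's quasi-likelihood test over all 14506 genes and 12 libraries, with calls made at 0.05 on the p-value after Benjamini-Hochberg adjustment. All 10 members rose with LPS in HEPES, where 35.6% of all genes tested were called higher, 41.2% lower and 76.9% in either direction. All 10 rose in MOPS, where 34.1% were called higher, 34.9% lower and 69% in either direction. The median log2 change of the members was 3.17 in HEPES and 2.72 in MOPS, beside -0.08 and -0.03 over all genes tested. The members were chosen with earlier results of these data known, so these counts and medians are no independent support. LPS and untreated groups overlapped for none of the 10 members in either medium, where 78.4% and 71.8% of all genes had groups that did not overlap. In both media Nfkbiz had the smallest p-value of all genes tested.

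The nuclear IkB gene Nfkbiz had the steepest rise, by a log2 change of 5.05 ± 0.044 (standard error) in HEPES and 5.51 ± 0.046 in MOPS. This was 33.1-fold and 45.5-fold (adjusted p = 6.98e-37 and 1.52e-37, edgeR). IkB-zeta, its product, is needed for LPS induction of a set of secondary response genes such as Il6. Nfkbia rose 22.6-fold in HEPES and 16.2-fold in MOPS (4.50 ± 0.053 and 4.02 ± 0.052 on the log2 scale). The 2 precursor genes came next among the subunits, Nfkb1 at 13.5-fold in HEPES and 10.5-fold in MOPS and Nfkb2 at 10.1-fold and 7.51-fold. Nfkbie rose 10.3-fold in HEPES and 10.996-fold in MOPS, and Nfkbib rose 8.01-fold and 5.81-fold. Bcl3 rose 6.50-fold in HEPES and 5.35-fold in MOPS. The genes for the subunits with transactivation domains rose least. Relb changed 4.69-fold in HEPES and 3.36-fold in MOPS, Rel 4.66-fold and 4.82-fold, and Rela, at the foot of the list, 2.82-fold and 2.85-fold. Scaling by total counts alone moved the median of all genes by -0.58 (log2) in HEPES and -0.51 in MOPS, and all 10 members were still called higher in both.

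**Figure D3:**
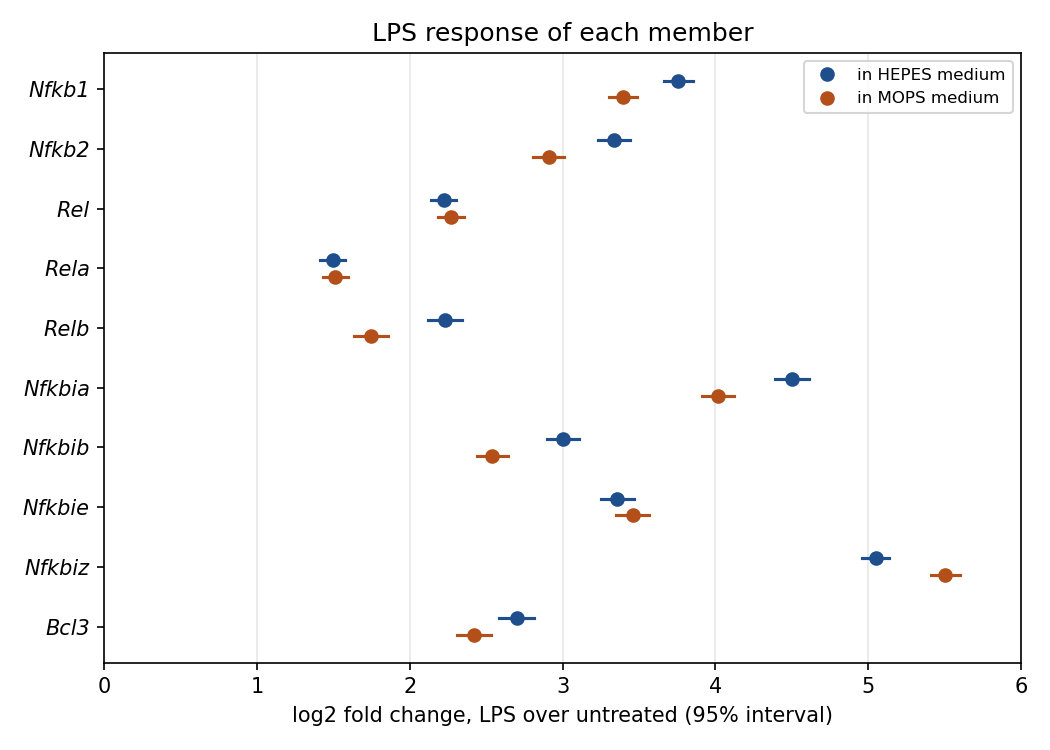
Log2 fold change of each member with LPS over untreated cells in HEPES and in MOPS, with 95% intervals. All points lie above 0, Nfkbiz farthest at 5.05 and 5.51 and Rela nearest at 1.49 and 1.51.

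Whether the LPS response itself differed between the media was tested as an interaction, how far the log2 change with LPS in MOPS exceeds the one in HEPES. The rise was smaller in MOPS for 6 of the 10 members, where 17.6% of all genes were called lower, and larger for 1, where 21.9% were called higher, together 39.4% of all genes. The 6 were Relb (-0.48 ± 0.075), Nfkbia (-0.48 ± 0.068), Nfkbib (-0.46 ± 0.069), Nfkb2 (-0.43 ± 0.067), Nfkb1 (-0.36 ± 0.059) and Bcl3 (-0.28 ± 0.078), with edgeR adjusted p from 1.57e-06 for Nfkbia to 0.00435 for Bcl3. Nfkbiz was the 1 gene that rose more in MOPS (0.46 ± 0.057, adjusted p = 1.35e-07). Rel (0.05, 95% interval -0.07 to 0.16), Rela (0.02, -0.10 to 0.13) and Nfkbie (0.10, -0.05 to 0.25) did not pass the test. The median over members was -0.32, beside 0.06 over all genes. The 7 calls were the same under each of the 16 alternatives run for them.

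The 7 differences took several forms in the levels. For Nfkb1 and Nfkb2 the media differed most after LPS. For Relb, Nfkbia and Nfkbib the levels in MOPS were higher without LPS and lower with it. For Nfkbiz and Bcl3 the media differed before LPS, and with LPS neither gene passed the test between media. The interaction and the comparisons of media are made from the same 12 libraries and are not independent of each other.

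Between the media without LPS, 5 members were higher in MOPS, where 24.3% of all genes were called higher. Another 3 were lower, where 25.4% were, and 49.7% of all genes were called in either direction. The members' median was 0.07 and that of all genes -0.01. Of the 10 members, 8 had groups that did not overlap, where 57.6% of all genes did. Nfkbiz was lower by the most (-0.51 ± 0.045, adjusted p = 4.61e-11, edgeR), 9.02 ± 0.201 RPKM in HEPES against 6.34 ± 0.243 in MOPS (SD, n = 3). Nfkb1 (-0.17 ± 0.043) and Rel (-0.16 ± 0.041) were lower as well. The IkB genes Nfkbia (0.33 ± 0.05), Bcl3 (0.32 ± 0.061) and Nfkbib (0.26 ± 0.053) were higher, as were Relb (0.23 ± 0.055) and Rela (0.12 ± 0.041). Nfkb2 (-0.05, 95% interval -0.15 to 0.05) and Nfkbie (0.01, -0.11 to 0.13) did not pass. The call of Rela (adjusted p = 0.0124) was lost without HEPES replicate 4 (log2 change 0.09, adjusted p = 0.0928) or MOPS replicate 2 (0.09, adjusted p = 0.132), with 0.00252 to 0.132 over its 17 alternatives.

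With LPS, 6 members were lower in MOPS than in HEPES, where 26.9% of all genes were called lower and 53.8% in either direction. The precursor genes differed most, Nfkb1 by -0.53 ± 0.041 (adjusted p = 1.44e-12, edgeR) and Nfkb2 by -0.48 ± 0.046 (adjusted p = 6.73e-10), which is 30.7% and 28.1% less transcript. Nfkb1 stood at 189.5 ± 5.03 RPKM in HEPES with LPS and at 131 ± 7.52 in MOPS with LPS (SD, n = 3), and Nfkb2 at 321 ± 12.6 and 231 ± 8.19. Relb (-0.25 ± 0.051), Nfkbib (-0.21 ± 0.044), Nfkbia (-0.16 ± 0.045) and Rel (-0.12 ± 0.038) were lower by less. The members' median was -0.14, beside 0.0047 over all genes tested. Of the 10 members, 9 had groups that did not overlap, where 58.8% of all genes did.

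Rela (0.14 ± 0.039, adjusted p = 0.00261) and Nfkbie (0.11 ± 0.045, adjusted p = 0.042) were higher in MOPS with LPS, 2 of 10 where 26.9% of all genes were called higher. The call of Nfkbie was lost in 10 of 17 alternatives (adjusted p of 2.64e-04 to 0.528 over all of them). These were RLE size factors (adjusted p = 0.0756), DESeq2 (adjusted p = 0.104) and the fits without any 1 of HEPES replicate 6, MOPS replicate 3, HEPES with LPS replicates 10, 11 and 12, and MOPS with LPS replicates 7, 8 and 9 (log2 change of 0.04 to 0.11). That of Rela was lost without HEPES with LPS replicate 11 (0.09, adjusted p = 0.0824), HEPES with LPS replicate 12 (0.10, adjusted p = 0.0711) or MOPS with LPS replicate 7 (0.08, adjusted p = 0.11). Across the alternatives for Rela it lay between 5.64e-06 and 0.11. Scaling by total counts alone ended the calls of Nfkbia (-0.06, adjusted p = 0.208) and Rel (-0.02, adjusted p = 0.658), and that of Rel was also lost without MOPS with LPS replicate 9 (-0.09, adjusted p = 0.0704). Across the alternatives it lay between 4.69e-04 and 0.208 for Nfkbia and between 2.36e-04 and 0.658 for Rel.

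Nfkbiz (-0.05, 95% interval -0.12 to 0.02) and Bcl3 (0.04, -0.06 to 0.14) did not pass the test between media with LPS. Without HEPES with LPS replicate 10 or 12, or MOPS with LPS replicate 7, Nfkbiz was called lower (log2 change of -0.10, -0.10 and -0.12, adjusted p = 0.043, 0.0458 and 0.00785), with 0.00785 to 0.57 over its alternatives. Scaling by total counts turned the sign of Nfkbiz to 0.04 and called Bcl3 higher (0.13, adjusted p = 0.0207; 0.0207 to 0.969 over its alternatives). In the authors' deposited table, all 10 members were called as here in the comparison of media without LPS and in both LPS comparisons, and 9 of 10 with LPS, the exception being Rel, whose adjusted p-value there is 0.0521.

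**Figure D4:**
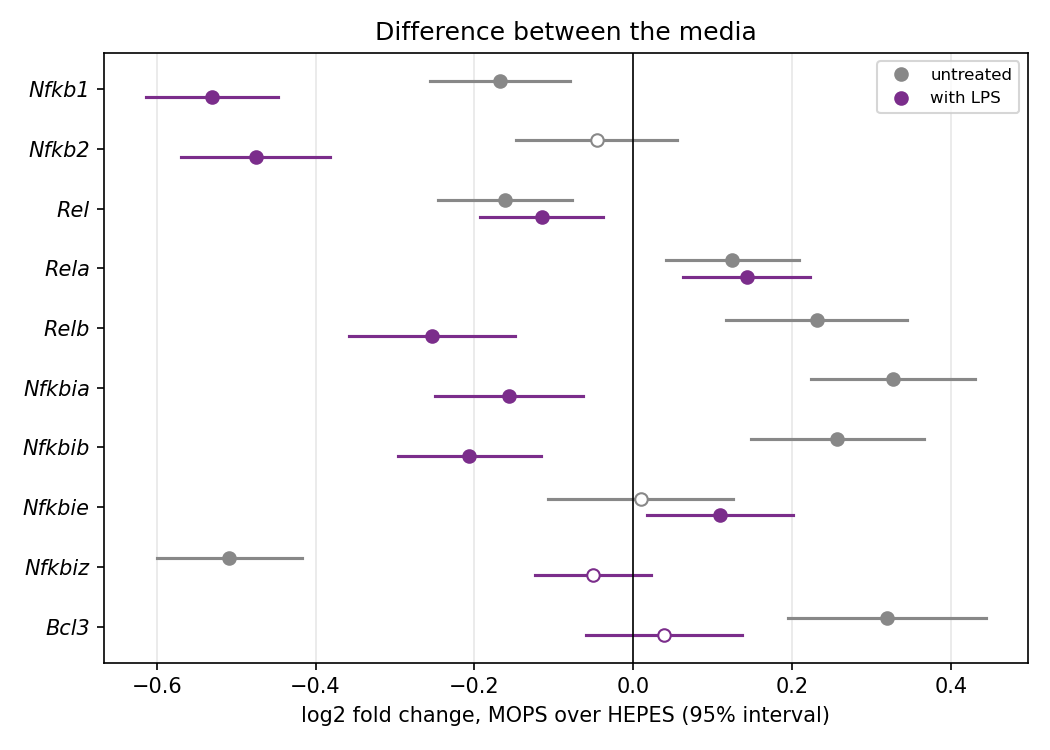
Log2 fold change of each member in MOPS over HEPES, untreated (grey) and with LPS (purple), with 95% intervals; filled points passed the test at an adjusted p under 0.05. Nfkb1 and Nfkb2 lie lowest with LPS at -0.53 and -0.48, Nfkbiz lowest without it at -0.51, and Relb, Nfkbia and Nfkbib lie on opposite sides of 0.

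The make-up of the subunit mRNA pool shifted with LPS. Rela held 31.8 ± 0.121% of the summed RPKM of the 5 subunits in HEPES (SD, n = 3) and 34.1 ± 0.635% in MOPS, and with LPS it held 13.1 ± 0.275% and 18.3 ± 0.17%. The share of Nfkb1 was 13.2 ± 0.569% in HEPES and 11.5 ± 0.16% in MOPS, and 25.9 ± 0.147% and 22.7 ± 0.742% with LPS. Nfkb2 went from 29.7 ± 0.558% to 43.8 ± 0.573% in HEPES and from 28.3 ± 0.718% to 39.9 ± 0.463% in MOPS. The precursor genes therefore took a larger part of the pool with LPS, and Rela a smaller one, with no overlap between groups. The shares also depend on the lengths. With those of the longest coding transcripts Nfkb1 held 29.2% in HEPES and 50.2% in HEPES with LPS, Nfkb2 19.3% and 24.8%, and Rela 24.1% and 8.65%. Relb stood at 14.1 ± 0.699% in HEPES, 16.3 ± 0.275% in MOPS, 9.67 ± 0.259% in HEPES with LPS and 10.3 ± 0.7% in MOPS with LPS, and Rel at 11.1 ± 0.324%, 9.81 ± 0.398%, 7.58 ± 0.438% and 8.86 ± 0.503% in the same order. In the exact two-sided permutation test, 26 of the 28 comparisons made of these shares and of the ratios below gave the smallest p that 3 against 3 libraries allow (0.1, adjusted 0.108). The other two were the share of Rel with and without LPS in MOPS and that of Relb between the media with LPS (exact permutation p = 0.2).

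The summed RPKM of the 3 classical inhibitors was 0.664 ± 0.0354 times that of the subunits in HEPES and 0.789 ± 0.0161 times in MOPS (SD, n = 3). With LPS it was 1.74 ± 0.00365 times in HEPES and 2.00 ± 0.0746 times in MOPS. For the 2 nuclear IkB genes the ratio was 0.158 ± 0.00433 in HEPES and 0.149 ± 0.00478 in MOPS, and with LPS 0.478 ± 0.0155 and 0.589 ± 0.0063. Both ratios were higher in MOPS than in HEPES, except that of the nuclear IkB genes without LPS. With LPS the IkB sums themselves were not higher in MOPS. The classical inhibitors summed to 1274 ± 36.2 RPKM in HEPES with LPS and 1158 ± 55.8 in MOPS with LPS. In the same order, the nuclear IkB genes summed to 349.7 ± 2.76 and 341 ± 11.1, and the subunits to 732 ± 20.5 and 578 ± 14.8. The subunit sums include the precursor genes. Nfkb1 stood at 189.5 RPKM in HEPES with LPS and 131 in MOPS with LPS, and Nfkb2 at 321 and 231. Of the other subunits, Rela was higher in MOPS with LPS, and Rel and Relb were lower. How the ratios would read with the precursor genes left out was not tested. These are ratios of transcripts, not of proteins. 

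**Figure D5:**
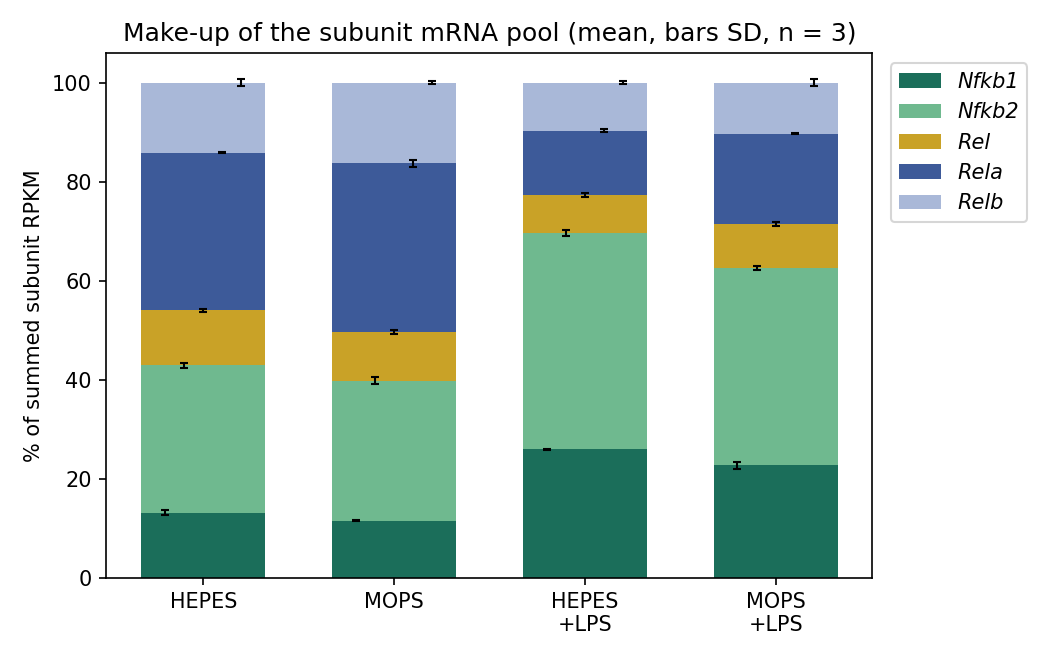
Share of each subunit gene in the summed RPKM of the 5 subunits (y axis, percent) in the 4 groups; stacked segments are means of 3 libraries and each error bar is the SD of the share whose top edge it sits on. Nfkb1 and Nfkb2 take more of the pool with LPS and Rela takes less, 31.8% against 13.1% in HEPES and 34.1% against 18.3% in MOPS.

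Genes upstream of the family were read from lists. Of 14 IkB kinases, upstream kinases and their partners, 10 rose and 3 fell with LPS in each medium, with a median of 0.88 in HEPES and 0.49 in MOPS. Of all genes tested, 35.6% rose and 41.2% fell in HEPES, and 34.1% rose and 34.9% fell in MOPS. Ikbkb, the catalytic subunit of the IkB kinase complex that phosphorylates IkB, rose by 1.59 ± 0.042 (log2) in HEPES and 0.87 ± 0.042 in MOPS. Map3k8, the kinase Tpl2 that is held by p105, rose by 1.82 ± 0.054 in HEPES, and Tab2, an adaptor of the kinase TAK1, by 1.28 ± 0.041. Tab1 fell by 1.60 in HEPES and by 1.52 in MOPS. In the interaction 8 of the 14 were called lower in MOPS and 2 higher, where 17.6% and 21.9% of all genes were, with Map3k8 at -1.04 ± 0.076, Ikbkb at -0.72 ± 0.059 and Tab2 at -0.58 ± 0.058.

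Between the media, 7 of the 14 kinases and partners were higher in MOPS without LPS and 1 was lower, while with LPS 3 were higher and 9 lower. The shares of all genes were 24.3% higher and 25.4% lower without LPS, and 26.9% in each direction with it, so that the 3 higher with LPS are near the share of all genes. Ikbkg, the scaffold NEMO of the IkB kinase complex, was higher in MOPS in both cases (0.95 ± 0.046 without LPS and 0.87 ± 0.047 with it). Map3k14, the kinase NIK of the pathway that processes p100, was also higher in both (0.90 ± 0.093 and 1.39 ± 0.11). Its level fell with LPS from 10.998 ± 1.16 to 6.20 ± 0.716 CPM in HEPES and from 20.4 ± 1.94 to 16.3 ± 1.56 CPM in MOPS (SD, n = 3).

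Of 12 other inhibitory regulators, 7 rose and 4 fell with LPS in HEPES, and 6 rose and 3 fell in MOPS. The falls are near or under the shares of all genes called lower, 41.2% in HEPES and 34.9% in MOPS, and 35.6% and 34.1% were called higher. Tnip1, a ubiquitin-binding partner of A20, rose by 4.79 ± 0.055 in HEPES and 4.33 ± 0.054 in MOPS, and differed in the interaction (-0.46 ± 0.071). Nfkbid, which encodes the nuclear IkB protein IkBNS and is not among the 10 members, rose by 2.04 ± 0.054 in HEPES and 2.05 ± 0.055 in MOPS. Nkiras2, a small GTPase-like protein that binds IkB-beta, fell by 1.65 and 1.18. Between the media without LPS 1 of the 12 was higher in MOPS (Tnip2, 0.14 ± 0.051) and 5 were lower (24.3% and 25.4% of all genes), Nkiras2 (-0.99 ± 0.046) and Pdlim2 (-0.94 ± 0.091), a ubiquitin ligase for p65, among them. With LPS 2 were higher and 6 lower (26.9% of all genes in each direction), with Nlrc5 at -1.01 ± 0.084. Of 10 tested genes on a list for IkB degradation and precursor processing, 6 rose and 2 fell with LPS in HEPES, and 7 rose and 1 fell in MOPS, beside the same shares of all genes. Fbxw11, which recognises phosphorylated IkB, rose by 0.84 ± 0.04 and 0.71 ± 0.04. Between the media 2 of these 10 genes were higher and 2 lower in MOPS, both without and with LPS, which is under the share of all genes in each direction (24.3% to 26.9%).

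Downstream, all 20 NF-kappaB target genes on the list rose with LPS in each medium. Of all genes tested, 35.6% were called higher in HEPES and 34.1% in MOPS. The targets had a median log2 change of 4.91 in HEPES and 4.73 in MOPS, beside -0.08 and -0.03 over all genes tested. The list was chosen with earlier results of these data known, so this count is no independent support. Between the media without LPS 4 of the 20 targets were called higher in MOPS and 9 lower (median -0.27), where 24.3% and 25.4% of all genes were. With LPS 2 were called higher and 14 lower (median -0.48), where 26.9% of all genes were in each direction. With LPS, Traf1, a signalling adaptor, was at -1.23 ± 0.057, Cd40, a costimulatory receptor, at -1.10 ± 0.045, and Tnfaip3, the ubiquitin editor A20, at -0.82 ± 0.044. In the interaction 4 were higher and 9 lower (21.9% and 17.6% of all genes), with the chemokine genes Ccl4 (1.247 ± 0.10) and Ccl3 (0.79 ± 0.081) and the cytokine gene Tnf (0.82 ± 0.11) among the former and Traf1 (-1.29 ± 0.13) among the latter. Ccl4, Ccl3 and Tnf had lower means in MOPS than in HEPES without LPS (3.60 against 11.1 CPM, 28.9 against 80.2 and 12.5 against 24.2). With LPS their means were lower in MOPS as well (728 against 938 CPM, 1349 against 2157 and 8184 against 8972), though the groups of Tnf overlapped.

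The genes whose profile over the 12 libraries lay nearest to each member were found by the root mean square difference of centred log2 CPM among 7957 protein-coding genes. Foxp4 was nearest to Bcl3 (0.0558), Ier5 to Rela (0.0708), Myd88, the adaptor of Toll-like receptors, to Relb (0.0799), and Csrnp1 to Nfkbia (0.0845). Stx11 was nearest to Nfkb1 (0.0895), Lrrfip1 to Rel (0.0971), Sod2 to Nfkbib (0.0982) and Clec4e to Nfkbie (0.128). Nfkbiz had the farthest nearest gene, Osm, at 0.202. The second nearest genes were Trib1 for Nfkb1, Il17ra for Nfkb2, Btg1 for Rel, Samd4b for Rela, Rbbp8 for Relb, Id3 for Nfkbia, Mdm2 for Nfkbib, Orai2 for Nfkbie, Hivep3 for Nfkbiz and Smim3 for Bcl3. Within the family the closest pair was Nfkbib and Bcl3 (0.147) and the farthest Rela and Nfkbiz (1.90).

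The gene nearest to Nfkb2 was Psd (0.0854), which lies on the opposite strand and shares 299 exon bases with it. Psd rose with LPS by 3.27 ± 0.059 in HEPES and 3.07 ± 0.061 in MOPS, and its counts came to 14.4% of those of Nfkb2. How strand was treated in counting is not given in the sources used here, so reads of these 2 genes cannot be told apart where they overlap. Nfkbib shares 42 exon bases with Sirt2 on the opposite strand, whose counts came to 93.7% of its own. Sirt2 did not pass the test with LPS in HEPES (-0.03 ± 0.04) or in MOPS (0.06 ± 0.04), and it was lower in MOPS both without LPS (-0.28 ± 0.039) and with it (-0.19 ± 0.041).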

How the data were processed

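RNA-seq was made from 12 libraries, 3 in each of 4 groups taken from the sample titles. Per the submitters' processing notes, CASAVA 1.8, HISAT2 2.0.5, featureCounts 1.5.0-p3 and the build mm10 were used, with no roles named. The sources used here do not give the strand setting or the annotation release. The authors deposited raw counts per gene, FPKM values and their own log2 fold changes and adjusted p-values, which hold other units; the gene lengths are also from the deposited table. In their LPS comparisons LPS is the denominator, and the sign was changed to match.

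Counts of 20114613 to 24734853 per library were fitted in R 4.3.3 with edgeR 4.0.16. Genes were filtered by filterByExpr, libraries were scaled by TMM (mean factors of 1.20 in HEPES, 1.22 in MOPS, 0.801 in HEPES with LPS and 0.854 in MOPS with LPS), and 4 group means were fitted with robust quasi-likelihood dispersion (8 residual degrees of freedom). The common biological coefficient of variation was 4.62%. P-values were adjusted over all 14506 genes tested. Standard errors are approximate (log2 change over root F), and 95% intervals use it. RPKM are TMM-scaled counts per kilobase of the length in the table. DESeq2 1.42.0, RLE and total-count scaling, no filter, fits of 2 groups and leaving out each library were the alternatives. On data simulated from these counts, the interaction test found 46%, 78%, 94% and 100% of the genes given 1.25, 1.5, 2 and 4-fold changes (14118 genes tested, 50 genes at each size), with 7 false calls. The changed genes were drawn above a minimum mean count, and all other genes had no difference between groups. In the real data 39.4% of genes were called in the interaction, so these rates may not carry over to it.

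The members and lists were chosen with earlier results of these data known. Named were all members, up to 3 genes in each direction with the smallest p per pathway list and comparison (not all are given in the text), and the 2 genes nearest to each member with a mean of at least 10 CPM.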

Additional observations from a re-analysis of the deposited data

Results flagged for a closer look

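In 7 of the 10 members the LPS change differed between the media by the interaction test of edgeR, which called 39.4% of all genes tested. The log2 change with LPS in MOPS, less the one in HEPES, was -0.48 for Relb and for Nfkbia, -0.46 for Nfkbib, -0.43 for Nfkb2, -0.36 for Nfkb1 and -0.28 for Bcl3. It was 0.46 for Nfkbiz, in the opposite direction.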

How the results depend on the processing

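No paired analysis was run. The replicate numbers run on across the groups, and the labels do not say whether libraries of different groups belong together. All 10 members were called higher with LPS in each medium under every alternative run, and the 7 interaction calls were kept likewise. Over left-out libraries, 4 to 5 members were called higher and 3 to 3 lower in MOPS without LPS, and 0 to 2 higher and 5 to 7 lower with LPS. The 2 called higher in MOPS with LPS became 1 with RLE size factors and 1 with DESeq2.

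The signs that turned were all of values that did not pass the main test. The interaction of Rela (0.02) was -0.0195 with RLE size factors and -0.0169 with DESeq2, and ran from -0.0456 to 0.0573 over left-out libraries. That of Rel ran from -0.0338 to 0.0710. The difference between media without LPS ran from -0.110 to 0.00286 for Nfkb2 and from -0.0545 to 0.0674 for Nfkbie. With LPS that of Bcl3 ran from -0.0244 to 0.0473, and that of Nfkbiz was 0.0416 with total-count scaling. The cause was not tested.

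Total-count scaling moved the share of called genes that were higher from 46.3% to 20.6% with LPS in HEPES, from 49.4% to 18.0% with LPS in MOPS, from 50.04% to 62.4% between media with LPS and from 55.5% to 66.4% in the interaction.

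The FPKM as deposited give the same shares of the subunit pool by construction, from the same counts and lengths, and are no check on them. With coding transcript lengths (chosen after seeing the data) the shares in HEPES, MOPS, HEPES with LPS and MOPS with LPS were 29.2%, 25.8%, 50.2% and 45.6% for Nfkb1, 19.3%, 18.5%, 24.8% and 23.4% for Nfkb2, 8.46%, 7.52%, 5.02% and 6.07% for Rel, 24.1%, 26.1%, 8.65% and 12.5% for Rela, and 18.9%, 21.98%, 11.3% and 12.4% for Relb. The ratio of classical inhibitors to subunits was 0.533, 0.637, 1.20 and 1.43. That of nuclear IkB genes was 0.153 in HEPES, 0.392 in HEPES with LPS and 0.5002 in MOPS with LPS. The direction of each change with LPS was that of the main lengths.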
